A study of Mus musculus with 2 samples.

Results

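The genes that carry fatty acids through β-oxidation in mitochondria and peroxisomes were examined in epididymal fat of mice on a high-fat diet. They were 33 genes chosen by their role, of 22180 genes that the arrays measured, namely 23 mitochondrial genes, 9 peroxisomal genes and Ppara, a regulator of both. Each gene was represented by the probe set that the platform annotation pairs with its symbol alone. Where 2 such probe sets existed, as for Crat only, the one with the higher mean level was taken. The A/J-12SM array carried RNA of the consomic strain, in which chromosome 12 of SM/J replaces that of A/J, and the A/J array carried RNA of the A/J strain. All mice were males that ate chow until an age of 6 weeks and the high-fat diet during the next 7 weeks, and the fat was taken after a fast of 4 h. RNA of 3 mice of a strain was pooled for its single array. There is thus 1 array per strain, no replicate of either, and no test, error or p-value for any difference below. "Higher" and "lower" describe these 2 arrays. The strains differ by design only in chromosome 12, and Acot2 was the only one of the 33 genes on it.

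In β-oxidation, an acyl-CoA is shortened through repeated rounds of dehydrogenation, hydration, a second dehydrogenation and thiolytic cleavage to acetyl-CoA. Long-chain fatty acids enter mitochondria as carnitine esters, and the electrons taken from them pass through an electron transfer flavoprotein to the respiratory chain. Peroxisomes take up very-long-chain and branched fatty acids through ABC transporters, and their first step, made by an oxidase, gives hydrogen peroxide. White fat mainly stores fatty acids, and brown and beige fat, liver and muscle are known for high oxidation.

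None of the 33 genes differed by more than 0.75 on the log2 scale, the limit used for selection in this study, which is above 1.68-fold or below 0.595-fold. Of all genes, 7.14% passed this limit, 2.86% above and 4.28% below, and of those with a mean level of at least 6, 4.57% did. In whole tissue, fewer cells of a type and less RNA per cell cannot be told apart. In all, 19 of the 33 genes were higher in A/J-12SM and 14 were lower, while 53.6% of all genes and 46.7% of those with a mean level of at least 6 were higher. Their median difference, A/J-12SM minus A/J, was 0.06, against 0.03 for all genes. Differences were within 0.5 in size for 31 of the 33 genes (93.9%), against 83.1% of all genes and 88.6% of those with a mean level of at least 6. The median size of a difference was 0.18 for the 28 oxidation genes with such a level and 0.17 for the 8198 genes with it. Of the 33 genes, 23 had a mean level of at least 8, and their median size was 0.18, against 0.15 for the 3105 genes with such a level. A difference beyond 0.5 was found in 16.9% of all genes and 11.4% of those with a mean level of at least 6. The 2 oxidation genes beyond 0.5 went opposite ways: Hadhb was lower (-0.73) and Ehhadh higher (0.64) in A/J-12SM. Acad11 (0.49) and Acad10 (-0.45) were next. Hadhb lay just inside the limit, and it passed it, at -0.754, when differences were centred on the median of all genes or corrected by loess.

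**Figure D1:**
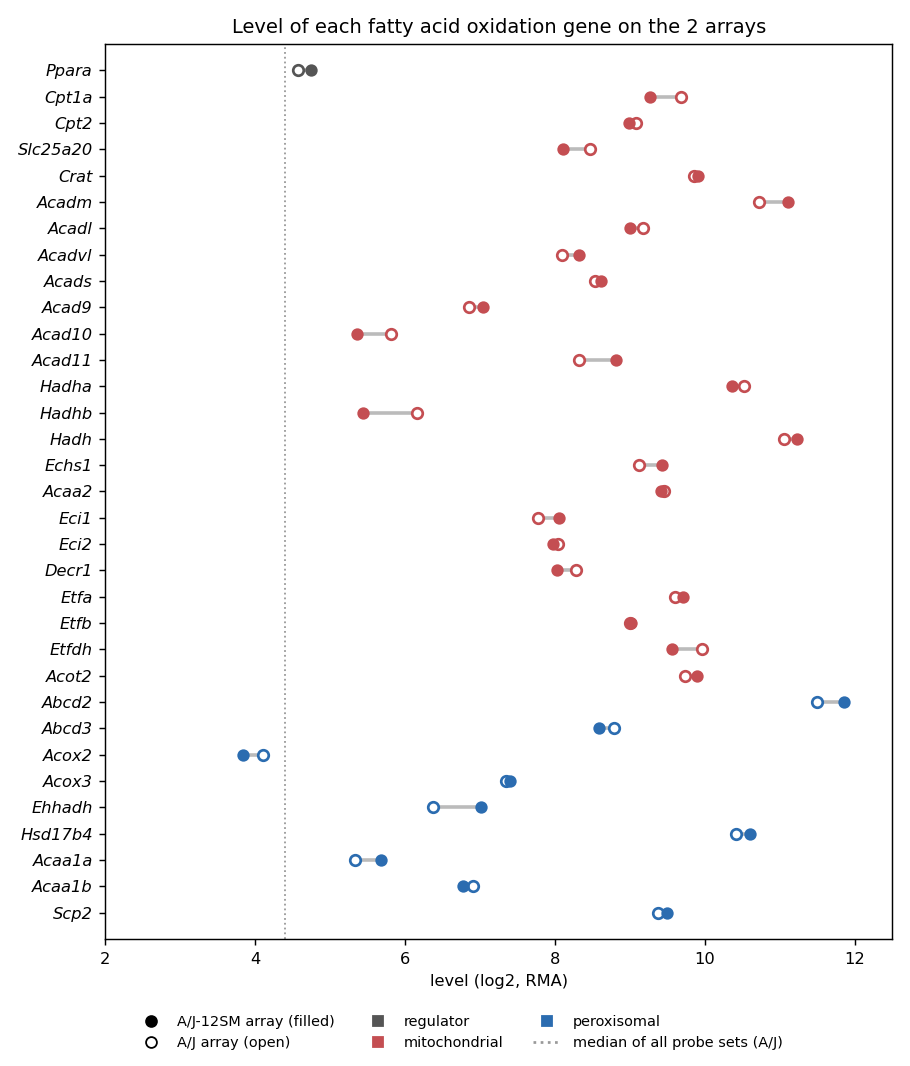
Level (log2, RMA) of each fatty acid oxidation gene on the A/J-12SM array (filled) and the A/J array (open), ordered by step; the dotted line is the median of all probe sets on the A/J array, 4.40. Both circles of a gene lie close together for most genes, with the widest gap at Hadhb (5.43 and 6.16); levels of different genes come from different probes and are not comparable.

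Ppara, the nuclear receptor that fatty acids activate and that drives many genes of this pathway, measured 4.74 on the A/J-12SM array and 4.57 on the A/J array. The median of all probe sets was 4.43 and 4.40 on these arrays, so Ppara was dim on both.

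The carnitine steps of mitochondria were represented by 4 genes. Of these, Cpt1a and Slc25a20 were lower in A/J-12SM, and Cpt2 and Crat were nearly equal. Cpt1a, which forms acylcarnitine at the outer membrane and sets the pace of oxidation in liver, measured 9.26 on the A/J-12SM array and 9.68 on the A/J array, a ratio of 0.749. Slc25a20, the translocase that exchanges acylcarnitine for carnitine across the inner membrane, had 8.11 on the A/J-12SM array and 8.47 on the A/J array. The 2 genes were thus lower by similar amounts, -0.42 and -0.36. Cpt2, which turns acylcarnitine back to acyl-CoA inside, was nearly equal (8.99 with A/J-12SM and 9.07 with A/J). Crat, the acetyltransferase that buffers acetyl-CoA with carnitine, was nearly equal too (9.91 and 9.85 on the A/J-12SM and A/J arrays). Its dimmer probe set differed by -0.08, against 0.06 for the brighter one, so no direction can be given for it.

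The acyl-CoA dehydrogenases, which make the first step at different chain lengths, did not all go one way: 5 of 7 were higher in A/J-12SM and 2 were lower. Acadm, the medium-chain enzyme, measured 11.10 on the A/J-12SM array and 10.71 on the A/J array, a ratio of 1.31. Acadvl, the very-long-chain enzyme, had 8.31 with A/J-12SM and 8.09 with A/J, whereas Acadl, the long-chain enzyme, was lower in A/J-12SM, with a difference of -0.18 and a ratio of 0.882. Acads, the short-chain enzyme, was nearly equal (8.61 and 8.53 on the A/J-12SM and A/J arrays). Of these 4 genes of classical enzymes, Acadm and Acadvl were therefore slightly higher, Acads nearly equal and Acadl lower, with a span from -0.18 to 0.39. Acad9, which also serves the assembly of respiratory complex I, had 7.03 with A/J-12SM and 6.84 with A/J. Acad10 and Acad11, 2 less studied members of the family, went opposite ways. Acad11 had 8.81 on the A/J-12SM array and 8.32 on the A/J array, a ratio of 1.41, while Acad10 had 5.36 on the A/J-12SM array and 5.81 on the A/J array, a ratio of 0.730.

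Acadm is shown here with 250 bases before its start, because it is a classical target of nuclear receptors. Promoter sequences were those of RefSeq on GRCm38.p6, the C57BL/6J reference and not the A/J or SM/J sequence. The table held 29 windows for 27 of the 33 genes. Capitals mark the receptor motif AGGTCA, read on either strand.
Acadm (chr3:153944644-153944893, strand -): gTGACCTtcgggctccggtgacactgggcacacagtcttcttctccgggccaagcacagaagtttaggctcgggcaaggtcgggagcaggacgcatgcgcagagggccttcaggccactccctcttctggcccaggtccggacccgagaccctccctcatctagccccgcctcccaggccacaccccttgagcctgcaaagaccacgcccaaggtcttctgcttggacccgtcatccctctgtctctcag
The motif was in 5 of the 29 windows (17.2%), those of Acadm, Acadvl, Cpt1a, Echs1 and Scp2, against 14.0% of all 32851 windows. Among these 5 genes Acadm, Acadvl, Echs1 and Scp2 were higher in A/J-12SM and Cpt1a was lower. A direct repeat of the motif with 1 base between, searched as AGGNCANAGGNCA on both strands and containing 2 copies of the looser AGGNCA, which AGGTCA also matches, was in none of the 29 windows and in 0.338% of all windows. TATAAA was in none of the 29 windows either, against 12.4% of all windows. GGGCGG, the GC box, was in 17 of the 29 windows (58.6%), against 32.7% of all. The windows of Hadha and Hadhb, which share 228 bases, were both counted among the 17. All of these motif counts are matches of letters within 250 bases only.

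The trifunctional protein, which carries the last 3 steps for long chains at the inner membrane, is built from the products of Hadha and Hadhb. Hadhb, the subunit with thiolase activity, measured 5.43 on the A/J-12SM array and 6.16 on the A/J array, a ratio of 0.604. Hadha, the subunit with hydratase and dehydrogenase activities, had 10.36 on the A/J-12SM array and 10.51 on the A/J array. Both subunits were lower in A/J-12SM, with a difference of -0.73 for Hadhb and -0.15 for Hadha. A pseudogene of Hadhb is annotated in RefSeq, and whether probes of this probe set match it was not checked. Hadha and Hadhb are neighbours that are read in opposite directions, with 272 bases between their starts, and their windows of 250 bases have 228 bases in common. The window is shown because 1 stretch of DNA lies before both genes, whose differences were unequal. Capitals mark GGGCGG, searched on both strands.
Hadhb (chr5:30155003-30155252, strand +): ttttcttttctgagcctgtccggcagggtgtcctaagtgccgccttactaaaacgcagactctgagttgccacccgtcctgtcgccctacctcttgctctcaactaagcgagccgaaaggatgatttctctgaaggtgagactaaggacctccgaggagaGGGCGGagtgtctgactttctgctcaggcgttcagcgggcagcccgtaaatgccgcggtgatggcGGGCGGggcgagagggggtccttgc
The window held 2 GC boxes, the second near the start of Hadhb.

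For shorter chains the same steps are made by soluble matrix enzymes, and their differences ran from -0.03 (Acaa2) to 0.31 (Echs1). Echs1, the short-chain enoyl-CoA hydratase, measured 9.43 on the A/J-12SM array and 9.12 on the A/J array. Hadh, the 3-hydroxyacyl-CoA dehydrogenase, had 11.22 with A/J-12SM and 11.05 with A/J. Acaa2, the thiolase, was nearly equal, with 9.41 on the A/J-12SM array and 9.45 on the A/J array, and its direction depended on the scaling. Auxiliary enzymes that handle double bonds of unsaturated fatty acids went both ways. The isomerase gene Eci1 had 8.05 on the A/J-12SM array and 7.77 on the A/J array, the isomerase gene Eci2 had 7.97 with A/J-12SM and 8.04 with A/J, and the dienoyl-CoA reductase gene Decr1 had 8.02 with A/J-12SM and 8.27 with A/J. Eci1 was thus higher by 0.28 and Decr1 lower by a similar amount (-0.25).

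Electrons of the first step pass to the flavoprotein made of Etfa and Etfb products and then to its dehydrogenase, encoded by Etfdh. Etfdh measured 9.55 on the A/J-12SM array and 9.96 on the A/J array, a ratio of 0.757. Its partners were nearly equal: Etfa had 9.70 with A/J-12SM and 9.60 with A/J, and Etfb, at 9.01 with A/J-12SM, differed by 0.01, with a direction that depended on the scaling. Over all 23 mitochondrial genes, 12 were higher and 11 lower in A/J-12SM, with a median difference of 0.01 and a mean of -0.03. Differences were within 0.25 in size for 13 of the 23 (56.5%), against 55.9% of all genes and 64.8% of those with a mean level of at least 6. Those above 0.25 were the 4 genes Acadm, Acad11, Echs1 and Eci1. Those below -0.25 were the 6 genes Cpt1a, Slc25a20, Acad10, Hadhb, Decr1 and Etfdh.

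**Figure D2:**
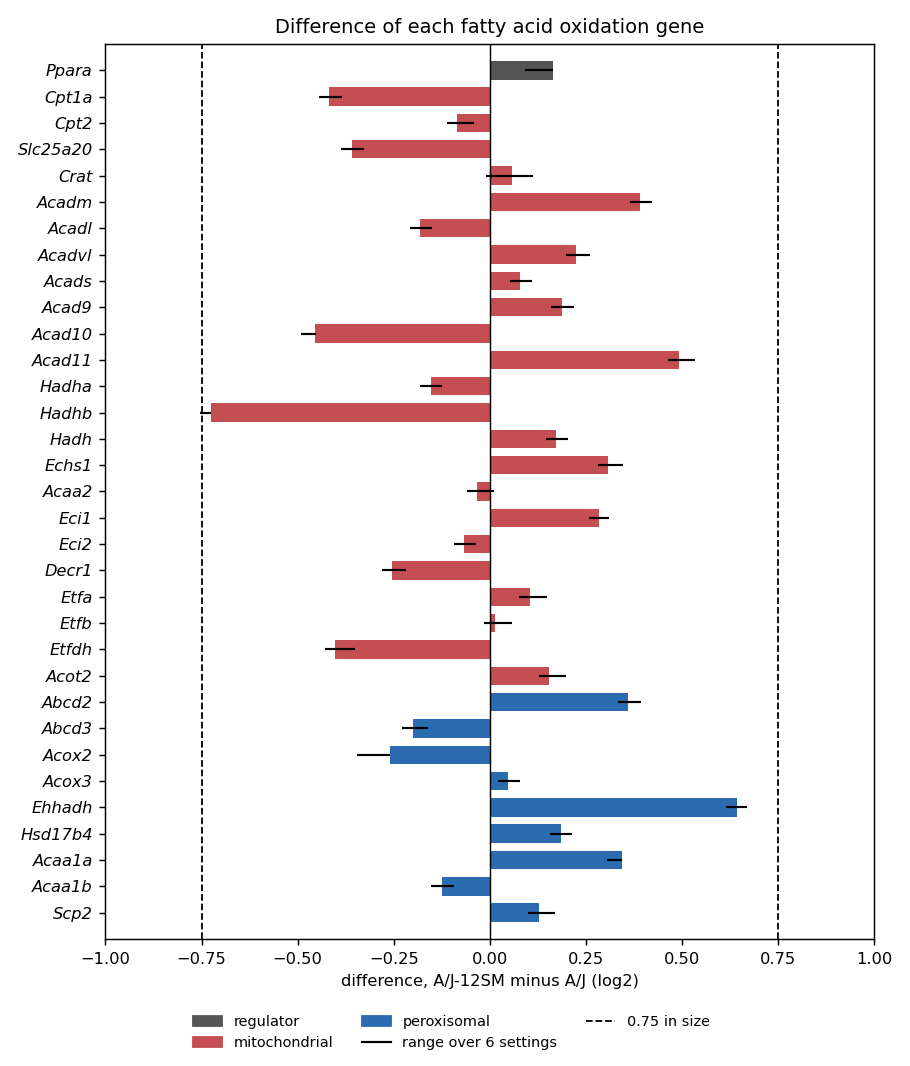
Difference of each gene (bars, A/J-12SM minus A/J, log2), with black lines for its range over 6 settings of scaling and probe set choice and dashed lines at 0.75 in size. The bars run from -0.73 (Hadhb) to 0.64 (Ehhadh), and the black line of Hadhb alone reaches a dashed line.

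Acot2, a mitochondrial thioesterase that releases free fatty acid from acyl-CoA, lies on the substituted chromosome and measured 9.89 on the A/J-12SM array and 9.73 on the A/J array, a difference of 0.16. The 5 genes that follow it on the chromosome belong to the same family. Acot1, the next gene and a cytosolic thioesterase, had 3.33 with A/J-12SM and 4.14 with A/J, and Acot3, a peroxisomal one, had 4.13 with A/J-12SM and 3.43 with A/J. Both lay below the median of all probe sets on both arrays, so the size of these differences is uncertain. Acot4 (-0.07), Acot5 (0.01) and Acot6 (-0.41) complete the row, and Acot2 alone of the 6 was above a level of 6. The copies are alike in sequence, so probes may not separate them, and variants of the SM/J allele under the probes were not checked. The 250 bases before Acot2 are shown because it is the only one of the 33 genes on the chromosome that differs between the strains; capitals mark CCAAT, read on either strand, which 33.8% of all windows hold.
Acot2 (chr12:83987611-83987860, strand +): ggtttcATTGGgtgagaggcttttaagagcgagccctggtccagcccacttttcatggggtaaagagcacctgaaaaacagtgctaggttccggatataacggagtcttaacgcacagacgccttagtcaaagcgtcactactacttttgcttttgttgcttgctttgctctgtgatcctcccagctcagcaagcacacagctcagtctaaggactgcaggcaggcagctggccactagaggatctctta

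In peroxisomes, 6 of the 9 genes were higher and 3 lower in A/J-12SM, while 53.6% of all genes were higher. The median of the 9 was 0.13. Import was represented by 2 ABC transporters. Abcd2, which transports very-long-chain and unsaturated acyl-CoA and is abundant in fat, measured 11.85 on the A/J-12SM array and 11.49 on the A/J array, a ratio of 1.28. Abcd3, the transporter of long-chain, branched and dicarboxylic acyl groups, had 8.58 on the A/J-12SM array and 8.78 on the A/J array. The transporters therefore went opposite ways, 0.36 and -0.20. Of the oxidases for branched substrates, Acox3 was nearly equal (7.40 and 7.35 on the A/J-12SM and A/J arrays), and Acox2, known from bile acid synthesis in liver, had 3.84 with A/J-12SM and 4.10 with A/J. Acox2 was the only one of the 33 genes below the median of all probe sets on both arrays.

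The largest peroxisomal difference was that of Ehhadh, the L-bifunctional enzyme that makes the hydration and second dehydrogenation of straight and dicarboxylic chains. Ehhadh measured 7.01 on the A/J-12SM array and 6.37 on the A/J array, a ratio of 1.56. Hsd17b4, the D-bifunctional enzyme used for branched and very-long chains, had 10.60 with A/J-12SM and 10.42 with A/J. Both bifunctional enzymes were thus higher on the A/J-12SM array, Ehhadh by 0.64 and Hsd17b4 by 0.18. The window of 250 bases before Ehhadh is shown as that of the gene with the largest difference upward, with GGGCGG and CCAAT, searched on both strands, in capitals.
Ehhadh (chr16:21787835-21788084, strand -): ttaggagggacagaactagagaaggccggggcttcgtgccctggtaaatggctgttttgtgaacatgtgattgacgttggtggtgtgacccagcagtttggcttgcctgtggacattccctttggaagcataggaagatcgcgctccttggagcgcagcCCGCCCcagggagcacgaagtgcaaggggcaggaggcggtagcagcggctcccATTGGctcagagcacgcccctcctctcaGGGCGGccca
It held 2 GC boxes and 1 CCAAT, and neither letters of AGGTCA nor a direct repeat of it.

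The peroxisomal thiolases, which make the last cleavage, were measured by 3 genes. Acaa1a measured 5.67 on the A/J-12SM array and 5.33 on the A/J array, and its close copy Acaa1b had 6.78 with A/J-12SM and 6.90 with A/J. The copies went opposite ways (0.34 and -0.13), and since they are alike in sequence their single levels are uncertain. Scp2, which encodes a thiolase for branched chains and a lipid carrier from the same gene, had 9.49 with A/J-12SM and 9.37 with A/J. Without Acaa1a and Acaa1b the median of the peroxisomal genes was still 0.13. With Acad11, Crat and Eci2, whose products are also found in peroxisomes, counted there, the peroxisomal median was 0.09 and the mitochondrial one -0.01. The medians of mitochondrial and peroxisomal genes, 0.01 and 0.13, cannot be tested against each other with 1 array per strain.

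**Figure D3:**
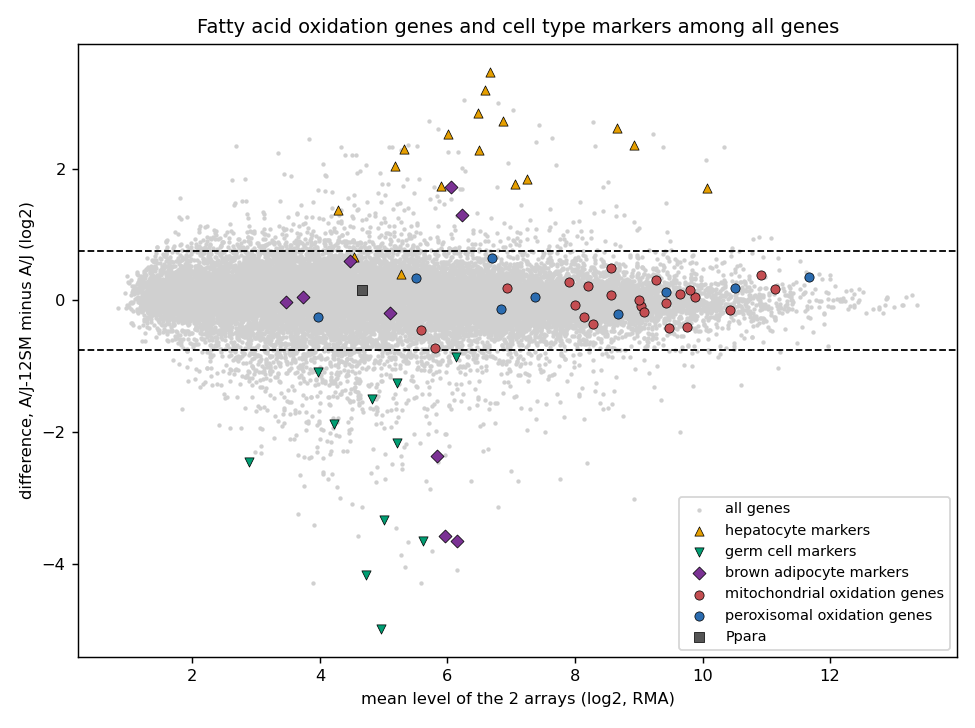
Difference (A/J-12SM minus A/J, log2) against mean level of the 2 arrays for all 22180 genes (grey), the fatty acid oxidation genes and markers of hepatocytes, germ cells and brown adipocytes; dashed lines are at 0.75 in size. All 33 oxidation genes lie between the dashed lines, while 15 of 17 hepatocyte markers lie above them and 11 of 11 germ cell markers below.

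Markers of hepatocytes and germ cells differed between the pools by more than any of the oxidation genes in most cases. Of all genes, 2.86% were above 0.75, 4.28% were below -0.75 and 53.6% were higher in A/J-12SM. Adipocyte markers were present on both arrays, 3 of 13 were above 0.75 and none below -0.75, and their summed linear signal was 45118 with A/J-12SM and 39825 with A/J. Of 17 hepatocyte markers, 15 were above 0.75 (median 2.29), and their summed signal was 6474 with A/J-12SM and 1463 with A/J. The number of these 17 below the median of all probe sets was 0 with A/J-12SM and 4 with A/J. All 11 germ cell markers were below -0.75 (median -2.16; summed signal 169.5 with A/J-12SM and 915.3 with A/J), as were 2 of 4 Leydig cell markers (median -1.26). Of these 2, Cyp11a1 differed by -1.93. Its dimmer probe set, below the median of all probe sets on both arrays, differed by 0.26. Of the germ cell markers, 9 lay below the median of all probe sets on the A/J-12SM array and 1 on the A/J array. Of 9 brown adipocyte markers, 2 were above 0.75 and 3 below -0.75 (median -0.02, mean -0.68). This median hides large differences in opposite directions. Cidea and Cox8b were higher in A/J-12SM, with ratios of 3.30 and 2.46. Elovl3, Ucp1 and Otop1 were lower, with ratios of 0.0796, 0.0839 and 0.195. Ucp1 and Otop1 had mean levels under 6 and were chosen after their values were seen. Macrophage markers were lower in 10 of 10 genes, 4 of them below -0.75 (median -0.45). Skeletal muscle markers were higher in 8 of 8 genes (median 0.25), 1 of them above 0.75. Only 1 of these 8 had a mean level of at least 6, and 3 lay below the median of all probe sets on both arrays. Mesothelial markers were higher in 6 of 6 genes (median 0.35). Markers of endothelium had a median of 0.19 and none past the limit. Markers of kidney tubule (median 0.16), epididymis (0.04) and lymphocytes (0.03) went both ways, each list with 1 gene below -0.75. The part of these cell types in the differences of the oxidation genes was not tested.

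Other genes of fatty acid oxidation, chosen by function, were measured by 91 of 105 listed genes, and the remaining 14 had no value of their own here, 6 of them because only probe sets naming several genes covered them. Of the 91, 8 were above 0.75 and 2 below -0.75 (11.0% past the limit, against 7.14% of all genes), and 7 of the 10 had a mean level under 6. The median over the 91 was 0.08. Hepatocyte markers, with a median of 2.29, were higher on the same array as these 8 genes, and their part in these differences was not tested. Genes of peroxisomal oxidation besides the 9 above had 3 of 20 above 0.75 (15.0%, against 2.86% of all genes). Amacr, which racemizes branched acyl-CoA, measured 6.52 on the A/J-12SM array and 5.72 on the A/J array, and Phyh, which starts α-oxidation of phytanic acid, differed by 0.60 and by 0.50 in its dimmer probe set. Phyh, Eci3 (0.87) and Slc27a2 (1.19), a peroxisomal and microsomal acyl-CoA synthetase, were chosen after their values were seen. The dimmer probe set of Slc27a2 differed by 0.10. Some lists share genes, each counted once among the 91, so counts per list do not add up to the totals above. Slc27a2 is counted again below among the acyl-CoA synthetases, and Acot1 among both the PPAR targets and the thioesterases. Peroxins, which build the organelle, had none of 13 past the limit and a median of -0.01, with Pex19 at -0.13 and Pex3 at 0.25.

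Regulators and targets of PPAR receptors had 2 of 21 genes above 0.75 and 2 below -0.75 (9.52% each). Of all genes, 2.86% were above 0.75 and 4.28% below -0.75. Plin5, a lipid droplet protein that brings droplets to mitochondria, measured 5.88 on the A/J-12SM array and 7.11 on the A/J array, a ratio of 0.427. Fabp1, the liver fatty acid-binding protein, and Cyp4a14, a fatty acid ω-hydroxylase, were higher in A/J-12SM. Fabp1 had 6.63 with A/J-12SM and 5.05 with A/J, and Cyp4a14 had 4.89 with A/J-12SM and 3.48 with A/J. Both, like Pdk4, Angptl4 and Ppargc1a below, were chosen after their values were seen. The target genes Pdk4 (-0.36) and Angptl4 (-0.22), both bright in these arrays, and the coactivator Ppargc1a (-0.19) were slightly lower. Targets of the same receptors were therefore found on both sides.

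Acyl-CoA synthetases and transporters had 2 of 12 above 0.75 (16.7%, against 2.86% of all genes), both with a mean level under 6. Slc27a1 (-0.07) and Acsl5 (-0.10) were nearly equal. Genes of carnitine and malonyl-CoA had none of 8 past the limit, with Acaca, which makes malonyl-CoA, at 0.36 and Crot, the peroxisomal carnitine octanoyltransferase, at 0.10. Acyl-CoA enzymes of amino acid breakdown had 1 of 9 above 0.75 (11.1%) and 8 of 9 higher, with a median of 0.19. Of all genes, 2.86% were above 0.75 and 53.6% were higher. Gcdh, glutaryl-CoA dehydrogenase of lysine breakdown, had 7.13 with A/J-12SM and 6.30 with A/J. Ketone body genes were higher in 4 of 4 cases, against 53.6% of all genes. None of them was past the limit, with Acat1 at 0.17 and Oxct1 at 0.08. Thioesterases other than Acot2 had a median of 0.01 over 11 genes, with Acot13 at 0.02 and Acot7 at -0.21, and Acot12 (0.79) and Acot1 (-0.82) past the limit at low levels; Acot12 was chosen after its value was seen. Most of the other pathway genes past the limit were thus at low levels. At a mean level of at least 6, 3 of 54 were past it, against 4.57% of all genes with such a level. None of the 33 genes was past it, although Hadhb, with a mean level under 6, was after median centring or loess. Whether 0 of 33 genes differs from these shares was not tested.

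**Figure D4:**
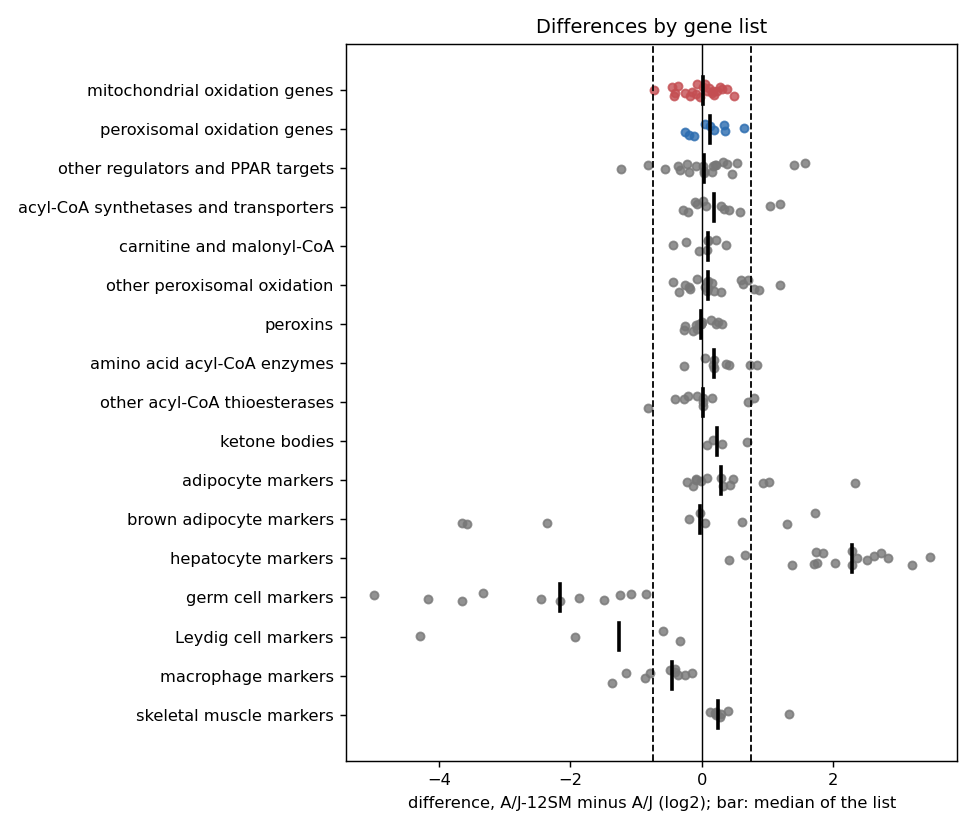
Differences (A/J-12SM minus A/J, log2) of the genes of each list (points) with the median of the list (bar) and dashed lines at 0.75 in size. The mitochondrial and peroxisomal genes have medians of 0.01 and 0.13 and stay between the lines, as do carnitine and malonyl-CoA genes, peroxins and ketone body genes, while hepatocyte and germ cell markers have medians of 2.29 and -2.16.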

How the data were processed

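Epididymal fat RNA of A/J-12SM and A/J mice was hybridized to 2 Affymetrix Mouse Gene ST 2.0 arrays, 1 per strain, from 100 ng of RNA pooled from 3 mice. The deposited values are log2 levels, 1 for each probe set, from the RMA-sketch procedure that the authors ran in Affymetrix Expression Console 1.3.0. RMA equalizes the arrays, so a shift of most genes in 1 direction would be removed. The build behind the annotation is not given in the sources used here. No detection call was used, so low levels cannot be separated from background, and the number of arrays limits the precision.

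The table held 41345 probe sets, of which 23521 named 1 gene, 1820 several and 16004 none in the annotation used. Symbols were updated through the RefSeq gene table of GRCm38.p6, from which chromosomes and neighbours were also taken. A gene was represented by its brightest probe set. All samples' columns were used. The difference was the A/J-12SM level minus the A/J level, and no test was run. The genes and lists were chosen with earlier results of these data known. Named were all 33 genes, and of other lists at most the 4 largest differences past 0.75 with a mean level of at least 6, otherwise the 2 with the highest mean level. Paralogs of a named gene were named beside it.

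Alternatives were median centring, loess (span 0.3), quantile normalization, the mean over probe sets, probe sets naming several genes, minimum mean levels of 5, 6 and 7, limits of 0.5 and 1.0, other compartment assignments, leaving out Acot2 or the Acaa1 copies, and means for medians. Motifs were searched in the 250 bases before each RefSeq start. The scripts were tested on simulated data. Python 3.11.15, pandas 2.3.3, NumPy 2.4.6, statsmodels 0.14.6 and matplotlib 3.10.9 were used.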

Additional observations from a re-analysis of the deposited data

How the results depend on the processing

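No paired analysis was possible because no result comes from a test and each strain has 1 array. The count of mitochondrial genes past the limit, 0, became 1 under median centring, under loess and at a limit of 0.5. That gene was Hadhb each time, at -0.754 after both scalings. The peroxisomal count, 0, became 1 at a limit of 0.5. The share of all genes past the limit, 7.14%, was 4.57% and 3.66% at mean levels of at least 6 and 7, and 16.9% and 3.49% at limits of 0.5 and 1.0. The 10 other pathway genes past it became 5, 3 and 0 at mean levels of at least 5, 6 and 7, an alternative chosen after seeing the data. A minimum of 6 left 54 of the 91 genes, and 7 of the 10 past the limit had a mean level under 6. No median of the mitochondrial or peroxisomal genes moved by more than 0.1. The direction held for 30 of the 33 genes over 6 settings of scaling and probe sets, and changed for Etfb, Acaa2 and Crat.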

Other observations

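Probe sets that name several genes were left out of the counts, and 7 of them were the only ones that cover 6 of the listed pathway genes. All 7 are given here. The brightest covers Echdc1, an ethylmalonyl-CoA decarboxylase, with Rnf146 and measured 8.82 on the A/J-12SM array and 9.45 on the A/J array. That for Cpt1b, the muscle form of the carnitine palmitoyltransferase, with Chkb and Gm44502 had 6.14 with A/J-12SM and 6.42 with A/J. The acyl-CoA synthetase genes went opposite ways, since Acsl3 with Utp14b had 5.82 with A/J-12SM and 6.09 with A/J, and Acsm3 with Eri2 had 5.33 with A/J-12SM and 4.02 with A/J. Acot8, a peroxisomal thioesterase, with Snx21 was nearly equal (5.74 with A/J-12SM and 5.80 with A/J). The 2 that cover Cyp4a10, a fatty acid ω-hydroxylase, with its close relatives differed by 1.24 and 0.91, at levels below the median of all probe sets on both arrays.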
